A study of Mus musculus with 23 samples.

Results

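Haemoglobin transcripts were followed across 23 hippocampus libraries of bulk RNA sequencing, as the 4 adult globin genes Hba-a1, Hba-a2, Hbb-bs and Hbb-bt, together with Alas2 and the olfactory receptor gene Olfr629. These are the 6 of 55335 genes in the count table that carry those symbols. They were chosen by name with measured levels of these data in view. Hbb-bt was then already among the largest increases of inhibitor-treated 3xTg mice over vehicle-treated WT mice, so that comparison is given for these genes as values with no test.

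The series used female mice of 2 lines. 3xTg mice carry human APPSwe and tauP301L transgenes under the neuron-specific mouse Thy1.2 element and a PS1 M146V knock-in, and the WT controls are of the C57BL/6J x 129S1 background strain. At 8 months, 4 untreated WT mice (WT-8M) and 4 untreated 3xTg mice (3xTg-8M) were sampled. At 10 months, all mice had received an intracerebroventricular osmotic pump for 28 days. It delivered either vehicle with 0.8% DMSO (WT-D and 3xTg-D, n = 4 each) or the stearoyl-CoA desaturase inhibitor SCDi at 80 µM in the same vehicle (WT-S, n = 3, and 3xTg-S, n = 4). The labels give each library its own animal number. Each library held 12.8M to 36.7M gene counts (8 months) or 13.0M to 17.6M (10 months). Levels are CPM, counts scaled to a common library size after TMM normalisation. The ages were scaled separately, so that a level at 8 months and one at 10 months are not on exactly the same scale. The hippocampal neuron markers came to 8340 to 10600 CPM in every library (10 genes, Snap25 and Camk2a among them), which shows neuronal RNA in each. No other tissue was compared, so this sum does not set the hippocampus apart.

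Haemoglobin carries oxygen in red blood cells and is built of alpha-globin chains, encoded in adult mice by Hba-a1 and Hba-a2, and beta-globin chains, encoded by Hbb-bs and Hbb-bt. Alas2 is the erythroid form of the first enzyme of heme synthesis. Mammalian red cells lose their nucleus, but young circulating red cells (reticulocytes) still hold globin mRNA, and low levels of globin transcripts are also known from some neurons and glia. RNA from whole brain tissue can therefore hold some haemoglobin mRNA from the blood left in its vessels. Perfusion of the animals is not stated for these libraries in the sources used here.

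Hba-a1 (chromosome 11, 32283511 to 32284465) and Hba-a2 (chromosome 11, 32296489 to 32297298) lie 12.0 kb apart, and Hbb-bt (chromosome 7, 103812524 to 103813996) and Hbb-bs (chromosome 7, 103826534 to 103828096) lie 12.5 kb apart, in GRCm38 coordinates of the count table. Alas2 is on chromosome X (150547375 to 150570638). Olfr629 lies on chromosome 7 (103739775 to 103744943), 67.6 kb from Hbb-bt. Promoters of 3 of the globin genes are shown because these genes moved together from library to library (that of Hba-a1 matches that of Hba-a2), and the Alas2 promoter because its gene moved with them from another chromosome. Each line holds the 250 bases before the RefSeq start (GRCm38.p6), 5′ to 3′ on the strand of the gene, at chr11:32296242-32296491 (plus strand) for Hba-a2, chr7:103827929-103828178 (minus strand) for Hbb-bs, chr7:103813924-103814173 (minus strand) for Hbb-bt and chrX:150547167-150547416 (plus strand) for Alas2. Capitals mark 4 short motifs on either strand, which are GATAA (letters bound by GATA factors), CACCC (the CACC box of erythroid promoters), CCAAT (the box of that name) and ATATAA (the box near the start that the TATA-binding protein recognises). No motif overlaps another.
Hba-a2: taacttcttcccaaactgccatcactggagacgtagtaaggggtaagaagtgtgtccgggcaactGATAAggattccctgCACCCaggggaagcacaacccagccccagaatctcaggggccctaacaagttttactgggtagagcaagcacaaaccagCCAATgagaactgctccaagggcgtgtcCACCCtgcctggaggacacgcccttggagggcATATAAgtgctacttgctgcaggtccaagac
Hbb-bs: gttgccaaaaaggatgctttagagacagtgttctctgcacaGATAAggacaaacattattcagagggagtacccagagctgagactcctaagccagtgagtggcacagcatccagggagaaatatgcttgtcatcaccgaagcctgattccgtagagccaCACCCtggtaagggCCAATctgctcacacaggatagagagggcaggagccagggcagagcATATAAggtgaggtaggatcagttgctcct
Hbb-bt: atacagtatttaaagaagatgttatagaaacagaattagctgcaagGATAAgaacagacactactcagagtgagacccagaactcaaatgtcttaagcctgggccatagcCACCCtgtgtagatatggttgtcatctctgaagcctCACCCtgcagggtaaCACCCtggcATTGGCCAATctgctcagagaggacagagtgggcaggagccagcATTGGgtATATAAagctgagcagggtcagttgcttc
Alas2: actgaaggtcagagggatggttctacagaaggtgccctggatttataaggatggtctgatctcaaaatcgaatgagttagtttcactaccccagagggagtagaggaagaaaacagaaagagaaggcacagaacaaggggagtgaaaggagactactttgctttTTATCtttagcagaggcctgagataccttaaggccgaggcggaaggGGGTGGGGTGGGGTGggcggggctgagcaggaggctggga

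The Hba-a1 promoter equals that of Hba-a2 in all 247 bases that can be compared, with the starts shifted by 3 bases. The Hbb-bs and Hbb-bt promoters have the same base at 127 positions (51.0%) with no gap allowed. All 4 globin promoters hold all 4 motifs, which 0.466% of 32851 RefSeq promoter windows of this length also do. The motifs were named beforehand, CACCC among them as a box of erythroid promoters, and were not found by a search. The Hba-a1 and Hba-a2 windows are also not separate cases, so no enrichment is read from this share. Singly, GATAA is found in 22.6% of these windows, CACCC in 52.0%, CCAAT in 33.8% and ATATAA in 9.1%. ATATAA ends 23 to 26 bases before the start in the globin genes, counted from its base nearest the start. Alas2 holds GATAA once and CACCC 3 times, each on the opposite strand, and neither of the other motifs. The window of Olfr629 (chr7:103741323-103741572, minus strand) lies within the span of the counted gene, and only ATATAA was found in it. These are matches of letters and not measured binding.

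The paralogs share much sequence, which limits what the counts can resolve. Of the read-length windows of 75 bases in the longest coding transcript of Gencode M21, 37.8% of those of Hba-a1 and 19.0% of those of Hba-a2 occur in no transcript of another gene. For Hbb-bs and Hbb-bt the shares are 35.7% and 43.4%. Windows shared by paralogs were shared only within the alpha pair or within the beta pair. The table has a separate line for reads that map to several places (11.4 to 15.1% of reads per library), so the globin counts rest mainly on the unique windows and understate the amounts. They are also uncertain in how reads split between paralogs. For Alas2, 87.9% of windows are unique and the others are shared with its neighbour Apex2, while all 2474 windows of Olfr629 are unique. Inbred mouse strains differ in their beta-globin haplotype, and the haplotype of each animal was not analysed here.

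Haemoglobin mRNA was present in every library. The summed count of the 4 globin genes ran from 76 to 3094 reads, and the summed level from 4.55 to 201.0 CPM with a median of 33.7 CPM. Per kilobase of the longest coding transcript, the median level over the 23 libraries was 43.4 CPM per kb for Hbb-bs, 4.86 for Hbb-bt, 3.23 for Hba-a1, 3.07 for Hba-a2 and 0.904 for Alas2. These lengths include the windows shared by paralogs, on which the counts mostly do not rest, so different genes are not on one scale. Hbb-bs supplied most of the counted haemoglobin reads. In bulk tissue, fewer cells of a type and less RNA per cell cannot be told apart.

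The WT libraries lay close together and the 3xTg libraries far apart. The summed level of the 4 globin genes was 20.7, 26.1, 29.6 and 30.4 CPM in vehicle WT, 33.1, 39.6 and 33.7 CPM in WT-S, and 26.2, 46.1, 33.1 and 20.4 CPM in WT-8M. It was 35.3, 64.4, 4.55 and 39.0 CPM in vehicle 3xTg, 28.8, 201.0, 52.8 and 46.6 CPM in 3xTg-S, and 53.2, 42.7, 19.5 and 94.5 CPM in 3xTg-8M. The highest library of all (3xTg-S replicate 2), the second highest (3xTg-8M replicate 4) and the lowest (3xTg-D replicate 3) were thus all 3xTg. The highest value was 2.26 times the lowest over the 11 WT libraries and 44.1 times the lowest over the 12 3xTg libraries. Within groups, the SD of the log2 level was 0.14 in WT-S, 0.25 in WT-D and 0.5 in WT-8M, against 0.94 in 3xTg-8M, 1.2 in 3xTg-S and 1.69 in 3xTg-D. The difference in spread was not tested.

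By group mean, summed haemoglobin was in the order WT-D (26.7 ± 4.41 CPM, SD, n = 4), WT-8M (31.4 ± 11.1, n = 4), WT-S (35.5 ± 3.61, n = 3), 3xTg-D (35.8 ± 24.5, n = 4), 3xTg-8M (52.5 ± 31.3, n = 4) and 3xTg-S (82.3 ± 79.7, n = 4). Every neighbouring pair of groups in that order overlapped.

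**Figure D1:**
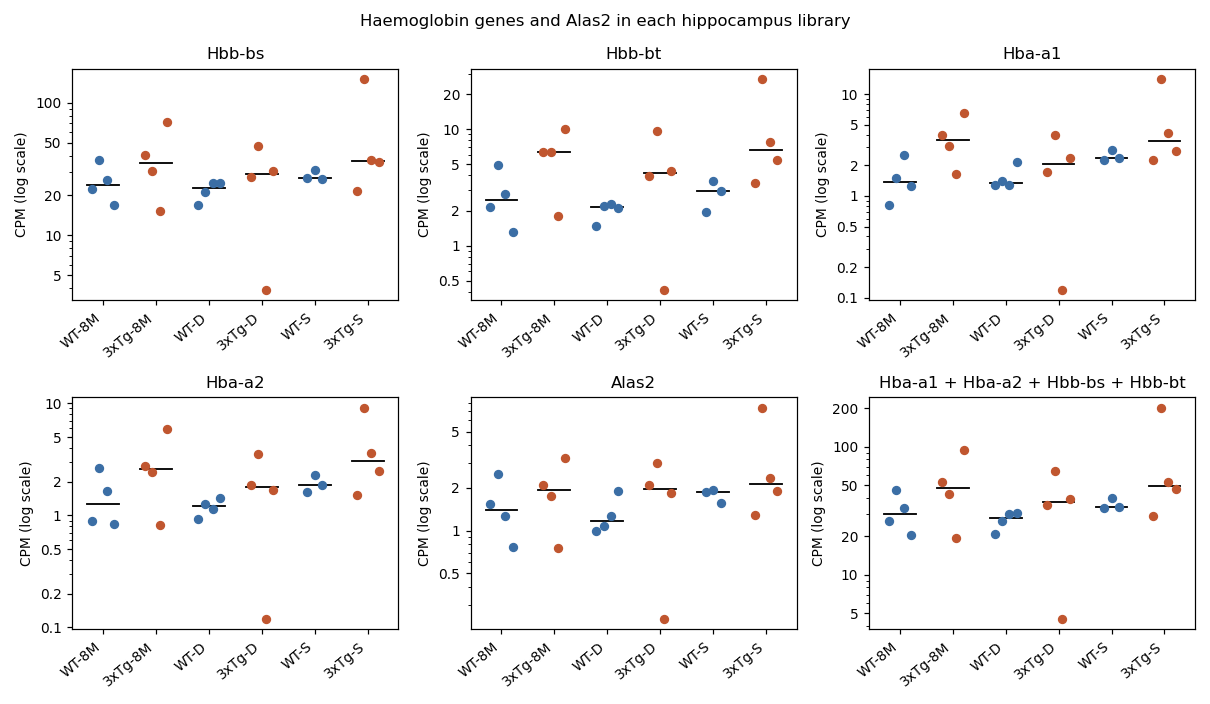
Level of each gene in each library, in CPM on a log scale, by group (points are libraries, blue for WT and orange for 3xTg, and lines are group medians). 3xTg-S replicate 2 is the highest point and 3xTg-D replicate 3 the lowest point in all 6 panels, at 201.0 and 4.55 CPM of summed haemoglobin.

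The globin genes and Alas2 moved together. Across the 23 libraries, Pearson's r of log2 CPM was 0.968 between Alas2 and summed haemoglobin (Spearman's rho 0.928). Both levels of a point come from the same library. Without 3xTg-D replicate 3 and 3xTg-S replicate 2, the libraries farthest from the median, r was 0.915. Taken as deviations from the group means, r was 0.976. It was 0.882 over the 11 WT libraries and 0.986 over the 12 3xTg libraries. Among the 10 pairs of the 5 genes, r ran from 0.882 (Hba-a1 with Alas2) to 0.974 (Hba-a2 with Hbb-bs). In WT libraries alone the range was wider, from 0.397 (Hba-a1 with Hbb-bt) to 0.923 (Hbb-bs with Hbb-bt), where Hba-a1 had 19 to 39 reads per library. No p is given for these values, since the genes were chosen together.

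The proportions between the genes varied less than the level. For every 100 haemoglobin reads there were 3.46 to 6.29 reads of Alas2 over all libraries. For every 100 beta-globin reads there were 5.56 to 17.2 alpha-globin reads, as counted reads and not as amounts of mRNA. The lowest of these ratios was in 3xTg-D replicate 3, where Hba-a1 and Hba-a2 had 2 reads each, and the highest was in 3xTg-S replicate 3. Hba-a1 made up 36.2 to 66.7% of the alpha-globin reads, with a median of 55.9% in WT and 54.8% in 3xTg libraries.

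The mean share of Hbb-bt among beta-globin reads was higher in 3xTg than in WT libraries, in the data by which Hbb-bt was chosen. Hbb-bt made up 7.89, 9.46, 8.35 and 7.82% of Hbb-bs and Hbb-bt reads in WT-D, and 12.6, 16.9, 9.72 and 12.6% in 3xTg-D. In WT-S it made up 6.65, 10.5 and 9.9%, and in 3xTg-S 13.7, 15.1, 17.3 and 13.1%. At 8 months it made up 8.71, 11.7, 9.54 and 7.17% in WT and 13.7, 17.2, 10.6 and 12.3% in 3xTg. The mean was 8.88 ± 1.51% in WT libraries (SD, n = 11) and 13.7 ± 2.48% in 3xTg libraries (SD, n = 12). Of the 12 3xTg libraries, 10 lay above the highest WT library. WT and 3xTg shares did not overlap under vehicle or under SCDi, and overlapped at 8 months. These counts have no counterpart over all genes, and nothing is read from them. The exact Clopper-Pearson 95% interval was 4.0 to 19.0% in 3xTg-D replicate 3, with 72 reads, and 13.8 to 16.5% in 3xTg-S replicate 2, with 2736 reads. Intervals cover counting error only. The share had no test because Hbb-bt was chosen for its difference. The part of sequence differences between the lines in this share was not tested.

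**Figure D2:**
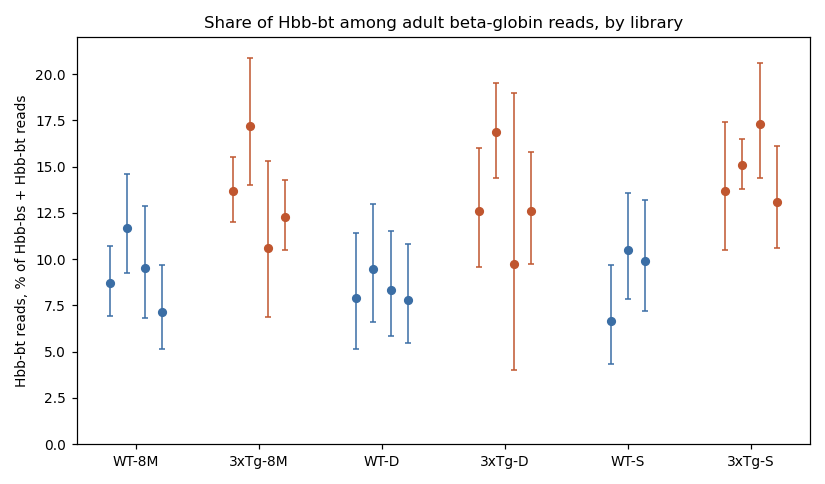
Hbb-bt reads as a percent of Hbb-bs and Hbb-bt reads in each library, by group (points are libraries, blue for WT and orange for 3xTg, bars are exact 95% binomial intervals). WT libraries lie between 6.65 and 11.7% and 3xTg libraries between 9.72 and 17.3%.

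3xTg-8M against WT-8M asks how the lines differ before any infusion, and shares no library with the comparison from which Hbb-bt was known. Hba-a1 had 0.818, 1.5, 2.53 and 1.25 CPM in WT-8M and 3.99, 3.13, 1.65 and 6.6 CPM in 3xTg-8M. Hbb-bt had 2.13, 4.92, 2.76 and 1.32 CPM in WT-8M and 6.36, 6.41, 1.8 and 10.1 CPM in 3xTg-8M. For both, 3 of the 4 3xTg libraries were above all WT libraries, and replicate 3 lay within the WT range. On the log2 scale Hba-a1 was higher by 1.45 (SE 0.41) with an adjusted p of 0.0943 in the edgeR quasi-likelihood test, and Hbb-bt by 1.24 (SE 0.45) with an adjusted p of 0.193. Hba-a2 (1.12, SE 0.51), Hbb-bs (0.65, SE 0.37) and Alas2 (0.45, SE 0.41) had adjusted p-values of 0.281 to 0.588. So 0 of the 6 genes passed an adjusted p of 0.05 in edgeR, against 2.58% of 15483 genes tested, and 3 had an unadjusted p under 0.05, against 17.4%. At an unadjusted p under 0.01 there was 1, Hba-a1, against 6.88%. None of the 6 had groups without overlap, against 4.91% of genes with all 3xTg libraries higher. DESeq2's likelihood ratio test called 1 of the 6, Hba-a1 (adjusted p = 0.023, log2 fold change 1.38). It called 684 of the 15483 genes, where edgeR called 399. Without 3xTg-8M replicate 3, edgeR also called Hba-a1 (log2 fold change 1.68, adjusted p = 0.0403), and over the alternatives its adjusted p ran from 0.000957 to 0.215. Without 3xTg-8M replicate 4, the library highest in haemoglobin at this age, the log2 fold changes were 1.08 for Hba-a1, 0.6 for Hba-a2, 0.22 for Hbb-bs, 0.92 for Hbb-bt and 0.14 for Alas2.

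Under vehicle, 3xTg-D against WT-D gave smaller differences with larger errors. The WT libraries held 17.0, 21.2, 25.0 and 24.7 CPM of Hbb-bs, and the 3xTg libraries 27.7, 47.2, 3.9 and 30.6 CPM. Of Hbb-bt they held 1.46, 2.21, 2.28 and 2.1 CPM and 3.98, 9.59, 0.419 and 4.39 CPM, in the same order. In both, 3 of the 4 3xTg libraries were above all WT libraries and replicate 3 was below all of them. The log2 fold change was 1.19 for Hbb-bt (SE 0.57, edgeR adjusted p = 0.408) and 0.31 to 0.59 for the other globin genes and Alas2 (SE 0.46 to 0.56, adjusted p = 0.72 to 0.844). In edgeR, 0 of the 6 genes passed, against 1.39% of 15528 tested. None had an unadjusted p under 0.05, against 13.1% of all genes, 0 had groups without overlap, against 4.04% higher in 3xTg-D, and DESeq2 called 0. Without 3xTg-D replicate 3, Hbb-bt had a log2 fold change of 1.6 (adjusted p = 0.0285) and was called. Without 3xTg-D replicate 2, the values of Hba-a1 and Hbb-bs turned to -0.18 and -0.1.

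SCDi against vehicle in WT mice compared the groups with the least spread in summed haemoglobin. Hba-a1 stood at 1.28, 1.41, 1.27 and 2.16 CPM with vehicle and at 2.25, 2.81 and 2.35 CPM with SCDi. Hba-a2 stood at 0.934, 1.27, 1.14 and 1.42 CPM with vehicle and at 1.63, 2.31 and 1.85 CPM with SCDi. Hbb-bs had 26.6 to 30.9 CPM in WT-S, above the 25.0 CPM of the highest WT-D library. These 3 genes were the ones among the 6 whose groups did not overlap, against 3.19% of all genes with all WT-S libraries above all WT-D libraries. Their log2 fold changes were 0.69 (SE 0.24), 0.7 (SE 0.24) and 0.36 (SE 0.13), with unadjusted p-values of 0.0151 to 0.0175 and an edgeR adjusted p of 0.981 each. Hbb-bt (0.5, SE 0.25) and Alas2 (0.45, SE 0.27) overlapped. In edgeR, 0 of the 6 passed, against 0% of 15724 genes tested, and 3 had an unadjusted p under 0.05, against 3.42%. WT-D was also the lower group of the comparison from which Hbb-bt was known, and the globin genes moved together. Nothing is therefore read from these counts. DESeq2 called 0 of the 6 and 0 genes in all.

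SCDi against vehicle in 3xTg mice gave larger differences that rested on a pair of libraries. Hba-a1 had 1.74, 4.01, 0.12 and 2.34 CPM in 3xTg-D and 2.26, 14.1, 4.13 and 2.78 CPM in 3xTg-S. Apart from replicate 3 of 3xTg-D and replicate 2 of 3xTg-S, the groups covered similar ranges. The log2 fold change was 1.53 for Hba-a1 (SE 0.67), 1.22 for Hba-a2 (SE 0.62), 1.18 for Hbb-bs (SE 0.63), 1.26 for Hbb-bt (SE 0.68) and 0.86 for Alas2 (SE 0.59), with edgeR adjusted p-values of 0.436 to 0.579. With both libraries left out, an alternative chosen after seeing the data, these values were 0.15, 0.06, -0.17, -0.14 and -0.35. In edgeR, 0 of the 6 genes passed, against 0% of 15530 tested, and 1 (Hba-a1) had an unadjusted p under 0.05, against 11.2%. None of the 6 had groups without overlap, against 4.14% higher in 3xTg-S. DESeq2 gave no adjusted p to the 4 globin genes and Alas2 in this comparison. It gave one to Olfr629 (0.821), which was not called, and it called 14 genes in all.

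With both lines under SCDi, 3xTg-S stood above WT-S most for Hbb-bt. Hbb-bt had 1.94, 3.61 and 2.92 CPM in WT-S and 3.42, 26.9, 7.82 and 5.43 CPM in 3xTg-S, and the groups overlapped by a single 3xTg library. Its log2 fold change was 1.94 (SE 0.63, unadjusted p = 0.00994, edgeR adjusted p = 0.24), and 0.95 without 3xTg-S replicate 2. Hba-a1 (1.24, SE 0.57), Hba-a2 (1.11, SE 0.51), Hbb-bs (1.13, SE 0.53) and Alas2 (0.85, SE 0.52) had adjusted p-values of 0.475 to 0.639. Without 3xTg-S replicate 2 these were 0.29, 0.38, 0.15 and 0.03. In edgeR, 0 of the 6 genes passed, against 1.32% of 15664 tested, and 1 had an unadjusted p under 0.05, against 10.6%. The same gene, Hbb-bt, was the 1 at an unadjusted p under 0.01, against 4.14%. None of the 6 had groups without overlap, against 5.49% higher in 3xTg-S, and DESeq2 called 0.

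Inhibitor-treated 3xTg against vehicle WT is the comparison from which Hbb-bt was known. Hbb-bt had 3.42, 26.9, 7.82 and 5.43 CPM in 3xTg-S and at most 2.28 CPM in WT-D. The fitted log2 fold change was 2.45 (SE 0.56), and 1.46 without 3xTg-S replicate 2. It was 1.93 for Hba-a1, 1.81 for Hba-a2, 1.49 for Hbb-bs and 1.3 for Alas2, and without that library 0.98, 1.08, 0.52 and 0.48. All 3xTg-S libraries were above all WT-D libraries for Hba-a1, Hba-a2 and Hbb-bt, as for 6.13% of 15567 genes, of which 2.29% passed an adjusted p of 0.05 in either direction. No test is given and nothing is read from this count. The other comparisons at 10 months share libraries with this one and with each other, so their values are not independent of it.

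The inhibitor difference was not shown to depend on the line. In the fit over the 15 libraries of 10 months, the product of strain and treatment had log2 values of 0.41 (Alas2) to 0.84 (Hba-a1) for the 4 globin genes and Alas2, with SEs of 0.8 to 0.98 and an edgeR adjusted p of 1 for each. Without 3xTg-S replicate 2 these values were -0.41 to -0.11. In edgeR, 0 of the 6 genes passed, against 0% of 16262 tested, and 0 had an unadjusted p under 0.05, against 2.32%. DESeq2 called 0 of the 6.

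**Figure D3:**
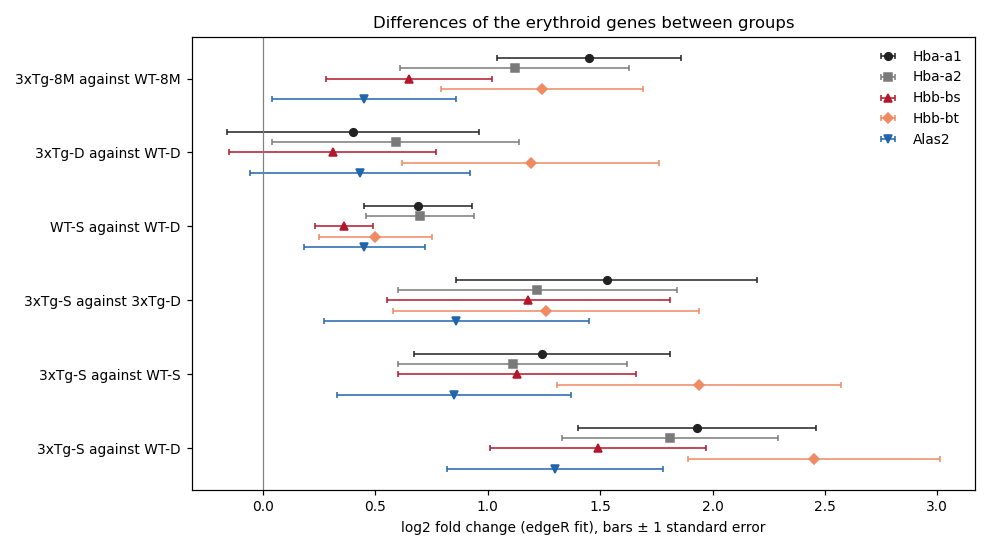
Fitted log2 fold change of the 4 globin genes and Alas2 in 6 comparisons (x axis), with bars of 1 standard error. All points lie above 0, from 0.31 to 2.45, and none passed an adjusted p of 0.05 in edgeR in the 5 comparisons tested (DESeq2 called Hba-a1 in 3xTg-8M against WT-8M). The comparison in the bottom row was not tested for these genes.

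Transcripts that define the red cell lineage differed in level, and many were at or near the limit of detection. Among 16 genes of the red cell membrane and skeleton, Rhag, the Rh-associated glycoprotein, was at 0 in every library, which with 3 counts as the limit allows up to 0.0818 to 0.233 CPM. Slc4a1, the band 3 anion exchanger, had at most 6 reads, and Epb42, Rhd and Kel at most 3. The erythroid transcription factors Gata1 and Nfe2 had at most 2 reads per library, Gfi1b was at 0, and Klf1 had at most 7. In 3xTg-S replicate 2, Hbb-bs alone had 2322 reads. Gypc, another membrane glycoprotein gene, had 17 to 77 reads per library (mean 1.91 CPM, where Alas2 had 1.94 CPM). The transcription factor genes Tal1 and Lmo2, which blood vessel cells also express, had 13 to 77 reads (1.96 CPM) and 147 to 475 reads (14.7 CPM). The genes of these lists with the highest levels, Sptb (mean 303.0 CPM) and Slc2a1 (69.0 CPM), Bcl11a (120.0 CPM) and Zfpm1 (23.2 CPM), are also expressed in brain cells. Of the genes of the membrane list that passed the filter (6 to 8 by comparison), Xk was lower in 3xTg-8M (log2 fold change -0.38, SE 0.07, edgeR adjusted p = 0.0161), and no other was called in any comparison, with up to 3 at an unadjusted p under 0.05 and up to 2 by DESeq2. Of the 5 transcription factors tested, edgeR called 0, with 0 to 3 at an unadjusted p under 0.05, and DESeq2 0 to 1. Beside these lists and those below, 0 to 2.58% of all genes were called by edgeR, by comparison. An unadjusted p under 0.05 was found for 2.32% (strain and treatment together) to 17.4% (3xTg-8M against WT-8M) of all genes. For 3xTg-S against WT-D that share is not given. Tal1 did not pass the adjustment. Its log2 fold change was 0.66 in 3xTg-8M against WT-8M (SE 0.24, edgeR adjusted p = 0.194), 0.58 in 3xTg-D against WT-D (SE 0.23, adjusted p = 0.293) and 1.06 in 3xTg-S against WT-S (SE 0.29, adjusted p = 0.137), with unadjusted p-values of 0.0189, 0.0247 and 0.00313.

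Other globins covered narrower ranges. Cygb, encoding cytoglobin, ran from 47.0 to 63.4 CPM and Ngb, encoding the neuronal globin, from 1.54 to 4.88 CPM. These were the 2 of 11 genes in this list that passed the filter, and edgeR called 0 in any comparison, with at most 1 at an unadjusted p under 0.05 and 0 by DESeq2. The embryonic genes Hba-x, Hbb-bh1 and Hbb-bh2 were at 0 in all libraries and Hbb-y had at most 5 reads. Within 100 kb of the alpha-globin genes, Nprl3 (24.0 CPM on average), Sh3pxd2b (14.4), Snrnp25 (11.7), Mpg (11.6) and Rhbdf1 (7.39) were expressed. Within 100 kb of Hbb-bs and Hbb-bt, 13 of 16 other genes were at 0 in all libraries.

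The heme synthesis list moved little as a whole, with a few genes called. Alas1, the housekeeping counterpart of Alas2, had 53.2 to 77.3 CPM, and Fech, which puts iron into heme, 64.8 to 84.0 CPM. All 12 genes of this list were tested. Alad (log2 fold change 0.45, SE 0.1, edgeR adjusted p = 0.0377) and the mitochondrial carrier gene Slc25a38 (0.33, SE 0.08, adjusted p = 0.049) were higher in 3xTg-8M than in WT-8M. That is 2 of 12 called in edgeR, against 2.58% of all genes, with 4 of 12 at an unadjusted p under 0.05, against 17.4%, and 2 by DESeq2. Slc25a37, the mitochondrial iron importer, was higher in 3xTg-S than in WT-S (0.45, SE 0.09, adjusted p = 0.0242) and WT-D (0.38, SE 0.09, adjusted p = 0.0466). That is 1 of 12 each in edgeR, against 1.32% and 2.29% of all genes, and DESeq2 called 1 in each. Against WT-S, 3 of 12 had an unadjusted p under 0.05, beside 10.6% of all genes. In edgeR no gene of the list was called lower in any comparison, and 0 were called in the other 4 fits, with up to 3 at an unadjusted p under 0.05 and up to 1 by DESeq2. The median log2 fold change of the list was -0.01 to 0.12, beside -0.003 to 0.006 over all genes tested.

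Among iron genes, the ferritin subunit Fth1 was highest (mean 1760.0 CPM), followed by Trf, the iron carrier transferrin (281.0 CPM). Trf was higher in 3xTg-S than in WT-S (log2 fold change 0.77, SE 0.08, edgeR adjusted p = 0.000205) and WT-D (0.72, SE 0.08, adjusted p = 0.000226). Slc11a2, an iron transporter, was higher in 3xTg-8M (0.5, SE 0.08, adjusted p = 0.00615). Each was the 1 gene of 10 tested that edgeR called in its comparison, against 1.32% (WT-S), 2.29% (WT-D) and 2.58% (8 months) of all genes. In 3xTg-8M against WT-8M, 4 of the 10 had an unadjusted p under 0.05, against 17.4% of all genes. DESeq2 called 2 there, and 684 of 15483 genes. In 3xTg-S against WT-S, 2 had an unadjusted p under 0.05, against 10.6% of all genes. DESeq2 called 1 in that comparison and 1 in 3xTg-S against WT-D. The edgeR test called 0 in the other 4 fits, with 1 or 2 at an unadjusted p under 0.05 and up to 1 by DESeq2. Of 7 tested genes for clearing heme and haemoglobin, edgeR called 0 in any comparison, with at most 1 at an unadjusted p under 0.05 and 0 by DESeq2. Hmox1, the inducible heme oxygenase, had 4.06 to 7.37 CPM over all libraries. Of 7 tested reticulocyte and red cell enzyme genes, with Car2 (219.0 CPM) and Prdx2 (155.0 CPM) highest on average, edgeR also called 0, with at most 2 at an unadjusted p under 0.05 and at most 1 by DESeq2.

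Markers of other blood cells were low. The 10 lymphocyte markers summed to 0.18 to 1.83 CPM and 0 passed the filter, and the 10 platelet markers summed to 2.38 to 5.07 CPM, of which 2 passed and neither edgeR nor DESeq2 called any, with 0 at an unadjusted p under 0.05. The 10 neutrophil markers summed to 0.826 to 2.1 CPM in 22 libraries and to 4.97 CPM in 3xTg-D replicate 3, the library with least haemoglobin. There S100a9 had 22 reads, S100a8 12 and Retnlg 10, each the highest of all libraries. Camp was at 0 throughout, and Ngp, Ltf, Elane and Mmp8 had at most 3 reads. Of this list Mmp9 alone passed the filter, and it was not called by edgeR or DESeq2 in any comparison, with 1 unadjusted p under 0.05 in the fit of strain and treatment together.

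Vessel and choroid plexus markers were set beside the haemoglobin level for the same reason. The 10 endothelial markers summed to 209.0 to 265.0 CPM, all 10 were tested, and edgeR called 0, with at most 2 at an unadjusted p under 0.05 and at most 1 by DESeq2. They stood at 251.0 CPM in 3xTg-S replicate 2 and at 232.0 CPM in 3xTg-D replicate 3, where summed haemoglobin differed by the whole range of the series. Taken singly, the endothelial markers had an r with summed haemoglobin of -0.315 (Kdr) to 0.663 (Emcn). The 12 choroid plexus markers, Ttr and Kl the highest on average, summed to 392.9 CPM in 3xTg-8M replicate 4, 267.7 CPM in 3xTg-S replicate 2 and 396.8 CPM in WT-S replicate 2, and to 37.8 to 139.0 CPM in the others. Haemoglobin was at 94.5, 201.0 and 39.6 CPM in those 3 libraries. Of the choroid plexus markers 7 to 12 were tested, edgeR and DESeq2 called 0, and up to 3 had an unadjusted p under 0.05. The part of vessel, neutrophil and choroid plexus material in the haemoglobin level was not tested. Among the neuron markers, all 10 tested, Wfs1 was lower in 3xTg-S than in WT-S (log2 fold change -0.5, SE 0.08, edgeR adjusted p = 0.00785) and WT-D (-0.54, SE 0.06, adjusted p = 0.000508). That is 1 of 10 each, against 1.32% and 2.29% of all genes. DESeq2 called 1 against WT-S and 2 against WT-D. Against WT-S, 3 of 10 had an unadjusted p under 0.05, beside 10.6% of all genes. In the other fits edgeR called 0, with up to 2 at an unadjusted p under 0.05 and up to 1 by DESeq2.

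The libraries richest in haemoglobin also favoured short transcripts. The slope of log2 level on log2 transcript length, each gene centred on its mean over the libraries of its age, was -0.136 in 3xTg-8M replicate 4 and -0.11 in 3xTg-S replicate 2, the lowest of the 23 libraries, and -0.045 to 0.0651 in the others. 3xTg-8M replicate 4 and 3xTg-S replicate 2 also had the highest share of reads without a gene at their age (30.87 and 27.54%). The same held for reads that map to several places (15.11 and 13.89%). Over 23 libraries, r between the slope and log2 summed haemoglobin was -0.641 (rho -0.483), and -0.531 without 3xTg-D replicate 3 and 3xTg-S replicate 2. It was -0.794 over 8 libraries at 8 months and -0.635 over 15 at 10 months, and -0.529 for deviations from group means. 3xTg-D replicate 2, at 64.4 CPM of haemoglobin, had a slope of 0.0483, above all but 1 library. With log2 total gene counts r was -0.133. Both values of a point come from the same library, and the part of transcript length in the haemoglobin level was not tested.

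**Figure D4:**
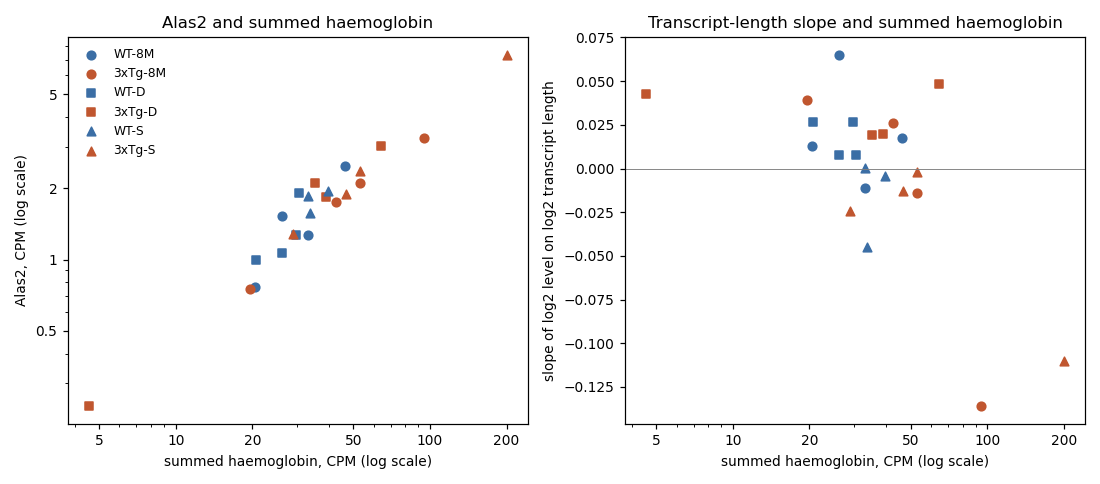
Left, Alas2 against the summed level of the 4 globin genes, both in CPM on log scales. Right, the transcript-length slope (log2 level per doubling of length) against the same x axis. Points are the 23 libraries by group. Alas2 follows haemoglobin from 4.55 to 201.0 CPM with r of 0.968, and the 2 libraries highest in haemoglobin have the lowest slopes.

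Outside the 5 erythroid genes, the 10 genes whose log2 level was most like summed haemoglobin were S100b (r 0.844), Tuba1a (0.823), Mdk (0.804), Rbis (0.795), Car2 (0.788), Cops9 (0.785), Qdpr (0.781), Cryzl2 (0.781), Baiap2l2 (0.778) and Ppp2cb (0.772), of 14617 genes with at least 1 CPM on average. All were less like it than Hba-a1 was (0.948), the least alike of the globin genes, which are themselves part of the sum. Alas2, which is no part of the sum, had an r of 0.968. Without 3xTg-D replicate 3 and 3xTg-S replicate 2, the r of these 10 was 0.347 to 0.654. Their longest transcripts had a median of 1476 bases, against 3431 for all genes ranked, and all 10 were shorter than that. With deviations from group means 5 of the 10 remained among the top 10, and with Spearman's rho 0.

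Olfr629 behaved differently from its neighbours on chromosome 7. It encodes an olfactory receptor, one of a large family of odorant receptors of the nasal epithelium, and is the first of 1108 such genes here by total count, with 25322 reads against 642 for the next. Of these genes 902 were at 0 in all libraries. It had exactly 0 reads in 7 of 23 libraries and 134 to 3626 reads in the other 16. Its level was 72.2, 0, 109.0 and 86.8 CPM in WT-8M, and 4.08, 0, 137.0 and 242.0 CPM in 3xTg-8M. At 10 months the vehicle libraries held 0, 0, 126.0 and 0 CPM (WT) or 39.2, 26.2, 0 and 136.0 CPM (3xTg). With SCDi the levels were 66.3, 164.0 and 0 CPM in WT and 118.0, 62.4, 35.1 and 128.0 CPM in 3xTg. A library at 0 allows a level of up to 0.0818 to 0.233 CPM (3 counts). Reads were present in 6 of 11 WT and 10 of 12 3xTg libraries, and in 3xTg-S, unlike any other group, in all libraries.

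Neither strain, age nor treatment went with its presence throughout, as 5 of the 6 groups held libraries at 0. The 9 other olfactory receptor genes within 100 kb of the beta-globin genes were at 0 in all libraries. Olfr629 did not follow haemoglobin: it had 0 reads in 3xTg-D replicate 3, the library lowest in haemoglobin, but also in WT-8M replicate 2, with 46.1 CPM of haemoglobin, and it had 62.4 CPM in 3xTg-S replicate 2, the highest. In edgeR its adjusted p was 0.705 to 1 in the tested fits. No fold change is given, since a fitted value over libraries at 0 depends on the prior count. All its read windows are unique to it, and the genotype of the animals at this gene was not analysed here.

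**Figure D5:**
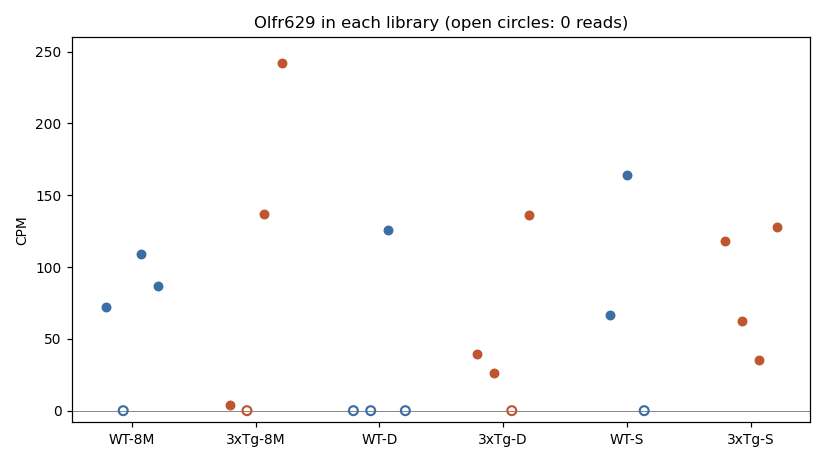
Level of Olfr629 in each library in CPM, by group (points are libraries, blue for WT and orange for 3xTg, open circles are libraries with 0 reads). Open circles appear in every group except 3xTg-S, and the other values run from 4.08 to 242.0 CPM.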

How the data were processed

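RNA of whole hippocampi from female WT and 3xTg mice was sequenced as single-end mRNA libraries (KAPA mRNA HyperPrep, per the study's methods). The authors trimmed reads with Trimmomatic 0.35, aligned them with STAR 2.5.1b to GRCm38 with Gencode annotation, and deposited raw read counts per gene. Molecular indices were ligated, but whether duplicates were collapsed, and whether counting used strand, is not given in the sources used here. Of the reads in the table, 24.7 to 30.9% fell in 4 lines that name no gene and were left out. The members and gene lists were chosen with earlier results of these data known. Each comparison was fitted on its own groups across all genes with edgeR 4.0.16 (TMM, filterByExpr, quasi-likelihood test, Benjamini-Hochberg, threshold 0.05), all 6 genes passing the filter in every comparison. The alternatives were DESeq2 1.42.0 (likelihood ratio test), its size factors, no filter, an unadjusted p under 0.01 as in the study, library sizes without the 4 globin genes, a block of 4 animals with neighbouring numbers, one fit for all 15 libraries of 10 months, and each library left out. Genes to which DESeq2 gave no adjusted p are not among its calls. The test was checked on simulated data. Levels, shares and correlations are descriptions with no test. Named were the 6 genes, list genes called or of highest mean, expressed genes within 100 kb of the globins, and the 10 genes most like summed haemoglobin (log2 CPM with a prior count of 2). Transcript lengths and windows came from Gencode M21, promoters from RefSeq, which held all 6 genes. Some genes of these lists are not reported here.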

Additional observations from a re-analysis of the deposited data

Results flagged for a closer look

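A library was flagged where, in a group of 4, its gap to the nearest other library took up more of the range of the group than Dixon's 95% critical value. Of 35 such checks, 5 gave a flag, where chance flags about 1 in 20, and the checks are not independent because the globin genes move together. 3xTg-S replicate 2 was flagged as the highest for Hba-a1 (14.1 CPM), Hbb-bs (151.0 CPM) and summed haemoglobin (201.0 CPM). Hba-a1 in WT-D replicate 4 (2.16 CPM) was flagged within a group whose other libraries had 1.27 to 1.41 CPM. Olfr629 in WT-D replicate 3 (126.0 CPM) was flagged because the other WT-D libraries had 0 reads. 3xTg-D replicate 3 was the lowest library for each erythroid gene and was not flagged, as the other libraries of its group were also spread.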

How the results depend on the processing

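The number of the 6 genes called was 0 in the 5 tested comparisons and in the fit of strain and treatment together, and it moved as follows. With no filter on low counts it was 2 for 3xTg-8M against WT-8M, where 854 of 32065 genes were called. It was 1 for 3xTg-D against WT-D, where 792 of 30782 were called. It was 4 for 3xTg-S against 3xTg-D and 5 for 3xTg-S against WT-S, where Hbb-bt had an edgeR adjusted p of 3.01e-17. Calls over all genes in these last comparisons are not reported here, and nothing is read from the counts. The cause of the higher counts was not tested. With an unadjusted p under 0.01 it was 1 for 3xTg-8M against WT-8M (6.88% of all genes) and 1 for 3xTg-S against WT-S (4.14%). With DESeq2 it was 1 for 3xTg-8M against WT-8M, where 684 of 15483 genes were called. With each library left out it was 0 to 1 for 3xTg-8M against WT-8M and for 3xTg-D against WT-D, and 0 in the others. It was 1 without 3xTg-8M replicate 3, where 326 of 15742 genes were called, and without 3xTg-D replicate 3, where 195 of 15682 were. Size factors, library sizes without the globin genes, the fit of all 15 libraries and the block of neighbouring animal numbers changed no call. The labels give animal numbers and no replicate numbers shared between groups, so no fit paired libraries by replicate number.

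For 3xTg-S against WT-D the median log2 fold change of the 6 genes was 1.03 to 1.94 with each library left out, lowest without 3xTg-S replicate 2. Some single values changed sign when a library was left out. Over the libraries left out, Hba-a1 ran from -0.18 to 0.83 and Hbb-bs from -0.1 to 0.69 in 3xTg-D against WT-D. In 3xTg-S against 3xTg-D, with each library left out and with the pair of libraries named below left out, Hbb-bs ran from -0.17 to 1.59, Hbb-bt from -0.14 to 1.94 and Alas2 from -0.35 to 1.25. In the fit of strain and treatment together Hba-a1 ran from -0.11 to 1.42, Hba-a2 from -0.21 to 1.11, Hbb-bs from -0.16 to 1.23, Hbb-bt from -0.23 to 1.43, Alas2 from -0.41 to 0.8 and Olfr629 from -12.38 to 0.71. Olfr629 ran from -0.59 to 0.91 in 3xTg-8M against WT-8M, from -0.53 to 12.59 in 3xTg-D against WT-D and from -0.42 to 1.39 in 3xTg-S against WT-S. These fitted values of Olfr629 rest on libraries at 0 and are no measure of its size. Without both 3xTg-D replicate 3 and 3xTg-S replicate 2, chosen after seeing the data, Hbb-bs, Hbb-bt and Alas2 were at -0.17, -0.14 and -0.35 in 3xTg-S against 3xTg-D, and Hba-a1, Hba-a2, Hbb-bs, Hbb-bt and Alas2 at -0.53, -0.63, -0.53, -0.63 and -0.8 in the fit of strain and treatment. Of the 10 genes most like summed haemoglobin, 5 remained with deviations from group means and 0 with Spearman's rho. Hba-a1 and Hba-a2 had as few as 2 reads in a library, and differences at that depth could not be resolved.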
